A study of Mus musculus with 8 samples.

Results

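The unfolded protein response and the integrated stress response were examined as a group of 31 genes in dendritic cells (DC) that either carried or lacked the microRNA miR-155. The members were the genes with a probe named for 1 of 31 symbols (ER chaperones, ER stress sensors and targets of the transcription factor ATF4), and they made up 31 of the 15401 genes tested and 60 of 41174 distinct probes. All 31 were tested, and the probe used for each was well above background on all 8 arrays. The DC were grown from the marrow of male C57BL/6Jax mice for 7 days in medium with 40 ng/mL GM-CSF, a growth factor that drives marrow cells towards DC. The 4 groups, each of 2 one-colour Agilent arrays, were miR-155 knockout (KO) DC given 100 ng/mL lipopolysaccharide (LPS, a bacterial cell wall component) for 16 h, wild-type (WT) DC given the same LPS, KO unstimulated DC and WT unstimulated DC. LPS-treated cells were sorted as CD86+ and were adherent, and unstimulated cells were sorted as CD86-, so each LPS comparison also compares these sort gates, and stimulus and gate cannot be told apart. Nothing in the labels ties a replicate to a mouse or culture of its own, so p-values measure only the spread between these samples, which may be technical.

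Unfolded protein in the endoplasmic reticulum (ER) is detected by membrane sensors: IRE1, encoded by Ern1, which splices the mRNA of Xbp1; PERK, encoded by Eif2ak3, which phosphorylates the initiation factor eIF2alpha; and ATF6, which is cleaved to release a transcription factor. XBP1 and ATF6 raise ER chaperones and degradation factors through the ER stress response element (ERSE). Phosphorylated eIF2alpha, which other kinases also produce in the integrated stress response, lowers general translation but favours that of ATF4, which binds a C/EBP-ATF response element (CARE) in genes of amino acid supply, redox balance and feedback. In DC, the IRE1 and XBP1 branch is known for its role in development and survival.

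The promoters of 6 members are shown because they include genes with large LPS differences (Slc7a11, Chac1, Asns) and folding genes, and each window holds 1 of the 2 elements. They are the 250 bases before the annotated gene start, from RefSeq on build GRCm38.p6 and written 5′ to 3′ on the gene's strand, with matches in capitals. The first 3 are ATF4 targets with a CARE match, on the strand shown or its complement: Asns at chr6:7693210-7693459 (minus strand), Chac1 at chr2:119350992-119351241 (plus strand) and Slc7a11 at chr3:50443614-50443863 (minus strand), which has 2 matches.
Asns: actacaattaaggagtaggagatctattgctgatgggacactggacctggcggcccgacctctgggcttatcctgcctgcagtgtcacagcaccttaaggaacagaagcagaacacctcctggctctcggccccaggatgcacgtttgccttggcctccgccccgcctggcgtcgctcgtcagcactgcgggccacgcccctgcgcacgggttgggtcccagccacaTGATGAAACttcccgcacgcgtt
Chac1: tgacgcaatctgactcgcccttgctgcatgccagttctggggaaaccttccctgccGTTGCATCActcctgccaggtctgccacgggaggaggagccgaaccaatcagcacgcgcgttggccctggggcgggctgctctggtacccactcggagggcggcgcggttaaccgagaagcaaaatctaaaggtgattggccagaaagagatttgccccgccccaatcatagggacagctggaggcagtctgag
Slc7a11: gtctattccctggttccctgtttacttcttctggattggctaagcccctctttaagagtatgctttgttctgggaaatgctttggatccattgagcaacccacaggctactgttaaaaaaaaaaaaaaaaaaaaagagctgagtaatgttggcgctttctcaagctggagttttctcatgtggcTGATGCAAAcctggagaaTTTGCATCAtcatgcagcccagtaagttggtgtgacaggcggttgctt
The other 3 are folding genes with an ERSE match, on either strand: Hspa5 at chr2:34771840-34772089 (plus strand), Creld2 at chr15:88819396-88819645 (plus strand) and Calr at chr8:84846932-84847181 (minus strand).
Hspa5: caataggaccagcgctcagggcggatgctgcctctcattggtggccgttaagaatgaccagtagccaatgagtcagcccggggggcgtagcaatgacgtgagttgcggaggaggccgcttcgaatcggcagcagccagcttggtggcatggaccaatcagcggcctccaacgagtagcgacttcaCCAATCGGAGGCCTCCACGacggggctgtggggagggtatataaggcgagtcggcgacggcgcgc
Creld2: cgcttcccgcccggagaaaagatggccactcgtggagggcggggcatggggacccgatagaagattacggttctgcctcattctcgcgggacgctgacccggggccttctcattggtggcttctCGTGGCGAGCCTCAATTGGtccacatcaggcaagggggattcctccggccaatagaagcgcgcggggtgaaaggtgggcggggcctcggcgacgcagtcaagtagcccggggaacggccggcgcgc
Calr: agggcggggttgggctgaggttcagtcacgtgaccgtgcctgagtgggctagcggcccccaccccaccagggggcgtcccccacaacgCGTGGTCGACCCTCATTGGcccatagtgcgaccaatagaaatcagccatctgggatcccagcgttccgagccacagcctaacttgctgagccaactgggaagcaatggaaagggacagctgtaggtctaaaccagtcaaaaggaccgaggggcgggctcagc

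Promoter windows were found for 28 members, and those of Atf6, Derl1 and Hyou1 were not used here. The ERSE letters, CCAAT, 9 bases of any kind, then CCACG on either strand, stood in 7 of the 28 windows (25.0%), those of Calr, Canx, Creld2, Dnajc3, Hsp90b1, Hspa5 and Pdia6, and in 0.113% of all 32851 windows. The CARE letters TGATGNAAN stood in 5 of 28 (17.9%), those of Asns, Atf3, Chac1, Herpud1 and Slc7a11, and in 3.44% of all windows. CCACG alone, which is part of ERSE, stood in 71.4% of member windows and 28.3% of all windows, and the letters TGACGTGG in 0 members and 0.563% of all windows. A match describes the sequence and does not show binding.

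The microRNA that the KO DC lack, miR-155-5p, lies at chr16:84714143-84714165 (plus strand, GRCm38.p6), and its seed (bases 2 to 8) is in capitals. Its own level was not analysed here.
miR-155-5p: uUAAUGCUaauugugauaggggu

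Signals are given as scaled log2 signal, the log2 of the processed intensity minus the 75th percentile of its array, so that 0 is the 75th percentile and 1 unit is 2-fold. They are comparable between arrays for one gene, not between genes. The 75th percentile intensity ranged from 474.1 to 750.4, and 50.8% to 58.3% of spots were well above background, over the 8 arrays. Of the 2 slides, both KO LPS arrays lay on slide 2 and both WT unstimulated arrays on slide 1, while WT LPS and KO unstimulated DC each had their first replicate on slide 2 and their second on slide 1. Of 12 DC markers, all 12 passed the filter, with summed linear signals of 1090 to 1590 times the 75th percentile on LPS arrays and 1050 to 1470 on unstimulated arrays. A sum adds probes whose levels are not comparable between genes, so it follows the brightest probe. Markers of other cell types moved with LPS: 5 of 8 stromal markers passed the filter and 4 were called higher. Col1a1, Col3a1 and Pdgfra did not pass. Sums of the 5 were 4.34 to 14.0 on LPS arrays against 0.266 to 0.695 on unstimulated arrays. Dcn, Lum and Col1a2 passed only through the LPS groups, so their differences are given as a description. Of the 4 called, Pdgfrb and Vcam1 passed through an unstimulated group too. Of 11 macrophage symbols, where Adgre1 and Emr1 name the same gene, all but Adgre1 passed, with 3 called higher and 5 lower. Of the 5 lower, Cd163 passed only through the unstimulated groups. Over the 10 markers, sums were 685 to 1070 on LPS arrays against 193 to 261 on unstimulated arrays. Their median difference was -1.57, and 7 of 10 were negative, while Marco read 9.10 and 9.43 on KO LPS arrays and 8.68 and 9.66 on WT LPS arrays, against 2.81 and 1.98 on KO unstimulated arrays and 4.72 and 2.65 on WT unstimulated arrays. Of 8 mast cell and basophil markers 7 passed, with 1 called higher and 5 lower. The 5 called lower and Fcer1a passed only through unstimulated groups, so their differences and the median are given as a description. Over the 7 markers, sums were 5.82 to 115 on LPS arrays against 0.922 to 3.62 on unstimulated arrays. Their median difference was -3.63, with 6 of 7 negative, and the exception, Hdc, read 6.82 and 2.5 on KO LPS arrays and 6.85 and 3.88 on WT LPS arrays, against -4.83 and -3.60 on KO unstimulated arrays and -4.94 and -2.68 on WT unstimulated arrays. Of 12 plasma and B cell markers, cells with an extensive ER, 5 passed (sums 6.23 to 9.58 on LPS arrays against 2.86 to 14.4 on unstimulated arrays), and Cd79a, Ms4a1, Pax5, Igj, Mzb1, Tnfrsf17 and Cr2 did not. Of the 5 that passed, 1 was called higher and 2 lower, and of the 2 lower Fcrla passed only through the unstimulated groups. Of 11 neutrophil symbols 6 passed (sums 8.38 to 10.1 on LPS arrays against 4.78 to 10.2 on unstimulated arrays), with 1 called higher and 2 lower. Camp, called higher, passed only through the LPS groups, and Ctsg and Ltf, called lower, only through the unstimulated groups. These 3 calls were favoured by the filter. Symbols that did not pass include Elane and Ela2, which name the same gene. The part of other cells in the results was not tested, and in sorted bulk samples fewer cells of a type and less RNA per cell cannot be told apart.

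Averaged over both genotypes, 8 stress genes rose with LPS and 3 fell. Slc7a11, Chac1, Asns, Ppp1r15a, Ddit3 and Atf3, which lie in or downstream of the ATF4 branch, rose 1.90-fold to 7.71-fold, and the chaperone genes Hspa5 and Dnajb9 rose 2.34-fold and 2.24-fold. Phgdh, also downstream of ATF4, fell by 3.23 on the log2 scale, and Eif2ak3 and Herpud1 fell by 1.19 and 0.84. The other 20 members did not pass the test (adjusted p under 0.05 by limma, over all genes). Among them were Atf4, Atf5, Trib3, Sesn2 and Psat1 of the ATF4 branch, Xbp1, Atf6 and 9 of 11 chaperones and folding enzymes. In total 8 of 31 members (25.8%) were called higher, against 18.4% of all genes tested, and 3 (9.68%) lower, against 19% of all genes. The members' median difference was 0.52, against 0.03 for all genes.

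On single arrays, 11 members (35.5%) had all 4 LPS arrays above all 4 unstimulated arrays, against 21.5% of all genes: the 8 called higher and Ern1, Atf4 and Dnajc3. All 4 LPS arrays lay below all 4 unstimulated arrays for Eif2ak3, Phgdh and Herpud1 (9.68%), against 22.5% of all genes. The map of members by array shows each member's signal against its own mean.

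**Figure D1:**
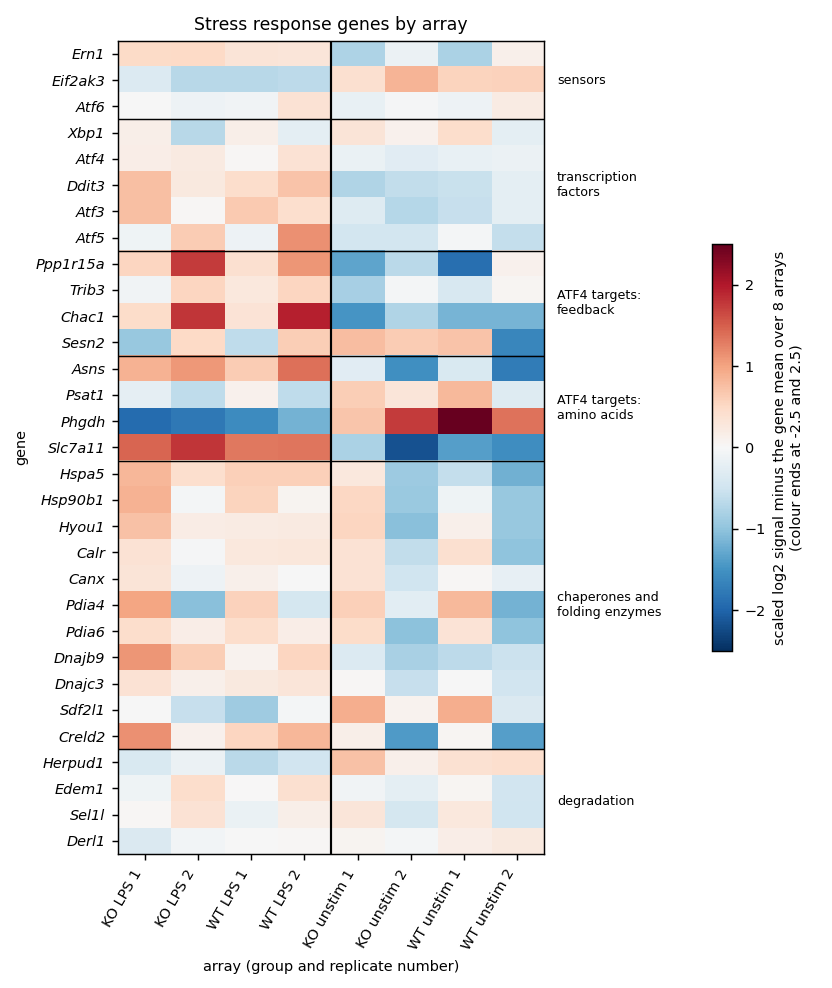
Scaled log2 signal of each of the 31 members (rows, grouped by role) on each array (columns, KO LPS, WT LPS, KO unstimulated and WT unstimulated, with replicate number), minus the gene's mean over the 8 arrays; red is above and blue below that mean. All 4 LPS columns are above all 4 unstimulated columns for 11 members and below them for Eif2ak3, Phgdh and Herpud1.

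Among amino acid supply genes, Slc7a11 encodes the light chain of the cystine-glutamate exchanger, which supplies cysteine for glutathione. Its probe at chr3:50176047-50176106 (build mm9 of the array files, as for all probes here) read 4.38 and 4.71 on KO LPS arrays and 4.24 and 4.25 on WT LPS arrays, against 2.13 and 0.75 on KO unstimulated arrays and 1.55 and 1.36 on WT unstimulated arrays. The lowest LPS array stood above the highest unstimulated array, and the averaged difference was 2.95 ± 0.32 (SE, limma adjusted p = 0.000691). The other 3 Slc7a11 probes differed by 1.02 to 2.39 in the same direction.

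Asns encodes asparagine synthetase, a textbook ATF4 target. Its signals (chr6:7625194-7625253) were 2.73 and 2.95 on KO LPS arrays and 2.5 and 3.24 on WT LPS arrays, against 1.59 and 0.33 on KO unstimulated arrays and 1.49 and 0.13 on WT unstimulated arrays. The groups did not overlap, although both unstimulated groups were wide, and the averaged difference was 1.97 ± 0.41 (SE, limma adjusted p = 0.0102). With slide as a block the difference was 1.84 and the adjusted p was 0.0533, so the call was lost.

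Phgdh and Psat1 encode consecutive enzymes of serine synthesis from glycolysis and are also known ATF4 targets, yet neither was higher with LPS. Phgdh (chr3:98117098-98117157) read -0.50 and -0.36 on KO LPS arrays and -0.14 and 0.24 on WT LPS arrays, against 2.12 and 3.18 on KO unstimulated arrays and 4.09 and 2.78 on WT unstimulated arrays. Every LPS array was at least 1 unit below every unstimulated array, a 9.41-fold lower averaged level (log2 difference -3.23 ± 0.37, SE, limma adjusted p = 0.000877), and its other probes gave -3.41 and -3.25. Psat1 averaged 0.80 in KO LPS and 0.97 in WT LPS, against 1.70 in KO unstimulated and 1.49 in WT unstimulated DC, with overlapping arrays and an averaged difference of -0.70 ± 0.32 (SE, limma adjusted p = 0.128). Thus 2 amino acid supply genes rose, 1 fell and 1 did not pass the test.

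Of the feedback and effector genes downstream of ATF4, Chac1 encodes an enzyme that degrades glutathione. Its signals (chr2:119179990-119180049) were -1.31 and 0.01 on KO LPS arrays and -1.43 and 0.16 on WT LPS arrays, against -3.24 and -2.53 on KO unstimulated arrays and -2.93 on both WT unstimulated arrays. The groups stood apart, with an averaged difference of 2.26 ± 0.45 (SE, limma adjusted p = 0.00802), and replicate 1 minus replicate 2 was -1.32 in KO LPS and -1.60 in WT LPS DC.

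Ppp1r15a encodes GADD34, the subunit that directs a phosphatase to eIF2alpha and so ends the signal. It read 1.39 and 2.59 on KO LPS arrays and 1.26 and 1.95 on WT LPS arrays, against -0.46 and 0.17 on KO unstimulated arrays and -1.04 and 0.95 on WT unstimulated arrays (chr7:52779582-52779641). The lowest LPS array was only slightly above the highest unstimulated array, and the averaged difference was 1.89 ± 0.50 (SE, limma adjusted p = 0.0251). Trib3, a pseudokinase that restrains ATF4 signalling, averaged -0.32 in KO LPS and -0.14 in WT LPS, against -0.98 in KO unstimulated and -0.71 in WT unstimulated DC (averaged difference 0.62, limma adjusted p = 0.115). Sesn2, a stress-induced inhibitor of mTORC1 signalling, read 1.48 and 2.93 on KO LPS arrays and 1.79 and 3.05 on WT LPS arrays, against 3.20 and 3.06 on KO unstimulated arrays and 3.15 and 0.81 on WT unstimulated arrays. Its arrays lay over 1 unit apart within every group but KO unstimulated, and the LPS and unstimulated arrays overlapped (averaged difference -0.24 ± 0.60, SE, limma adjusted p = 0.778), and its other probe gave -0.86. In all, 2 of these 4 genes rose.

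Among the 5 transcription factors, Ddit3, which encodes the pro-apoptotic factor CHOP, and Atf3, an early stress-induced factor, rose. This is a share of 40.0%, against 18.4% of all genes called higher. Ddit3 (chr10:126732518-126732821) read 1.76 and 1.25 on KO LPS arrays and 1.44 and 1.72 on WT LPS arrays, against 0.24 and 0.39 on KO unstimulated arrays and 0.44 and 0.75 on WT unstimulated arrays. All LPS arrays were higher, by 1.09 ± 0.20 on average (SE, limma adjusted p = 0.00654). Atf3 (chr1:192994547-192994606) read 5.72 and 5 on KO LPS arrays and 5.61 and 5.38 on WT LPS arrays, against 4.64 and 4.26 on KO unstimulated arrays and 4.38 and 4.73 on WT unstimulated arrays. The arrays again did not overlap, and the difference was 0.92 ± 0.24 (SE, limma adjusted p = 0.0217), which with slide as a block became 0.77 with an adjusted p of 0.101.

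The transcripts of the central factors moved less. Atf4 read 3.66 and 3.71 on KO LPS arrays and 3.52 and 3.86 on WT LPS arrays, against 3.33 and 3.20 on KO unstimulated arrays and 3.30 and 3.34 on WT unstimulated arrays. All LPS arrays were higher, but the averaged difference of 0.39 ± 0.18 did not pass the test (SE, limma adjusted p = 0.120); ATF4 is regulated mainly in translation, which these arrays do not measure. Atf5, a related factor also controlled in translation, averaged 3.24 in KO LPS and 3.48 in WT LPS, against 2.52 in KO unstimulated and 2.66 in WT unstimulated DC (averaged difference 0.77, limma adjusted p = 0.118). Xbp1 averaged 3.21 in KO LPS and 3.44 in WT LPS, against 3.70 in KO unstimulated and 3.59 in WT unstimulated DC (averaged difference -0.32, limma adjusted p = 0.399). It has a single probe, so the spliced and unspliced forms were not measured apart.

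Of the 3 sensors, Eif2ak3, the PERK gene, fell, a share of 33.3%, against 19% of all genes called lower. Its signals (chr6:70854787-70854846) were -0.45 and -0.81 on KO LPS arrays and -0.81 and -0.77 on WT LPS arrays, against 0.29 and 0.73 on KO unstimulated arrays and 0.45 and 0.47 on WT unstimulated arrays. On this probe the groups stood well apart, with an averaged difference of -1.19 ± 0.19 (SE, limma adjusted p = 0.00362). The other, dimmer Eif2ak3 probe gave -0.71 (limma adjusted p = 0.0724 over all kept probes), with overlapping LPS and unstimulated arrays. With the mean of all probes of a gene, the call in KO alone was lost. Ern1 read -0.06 and -0.04 on KO LPS arrays and -0.20 and -0.22 on WT LPS arrays, against -1.31 and -0.68 on KO unstimulated arrays and -1.33 and -0.40 on WT unstimulated arrays. All LPS arrays were higher here too, but the averaged difference of 0.80 ± 0.27 just missed the threshold (SE, limma adjusted p = 0.0543). Atf6 averaged 1.12 in KO LPS and 1.32 in WT LPS, against 1.09 in KO unstimulated and 1.23 in WT unstimulated DC, a difference of 0.06 (limma adjusted p = 0.822).

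**Figure D2:**
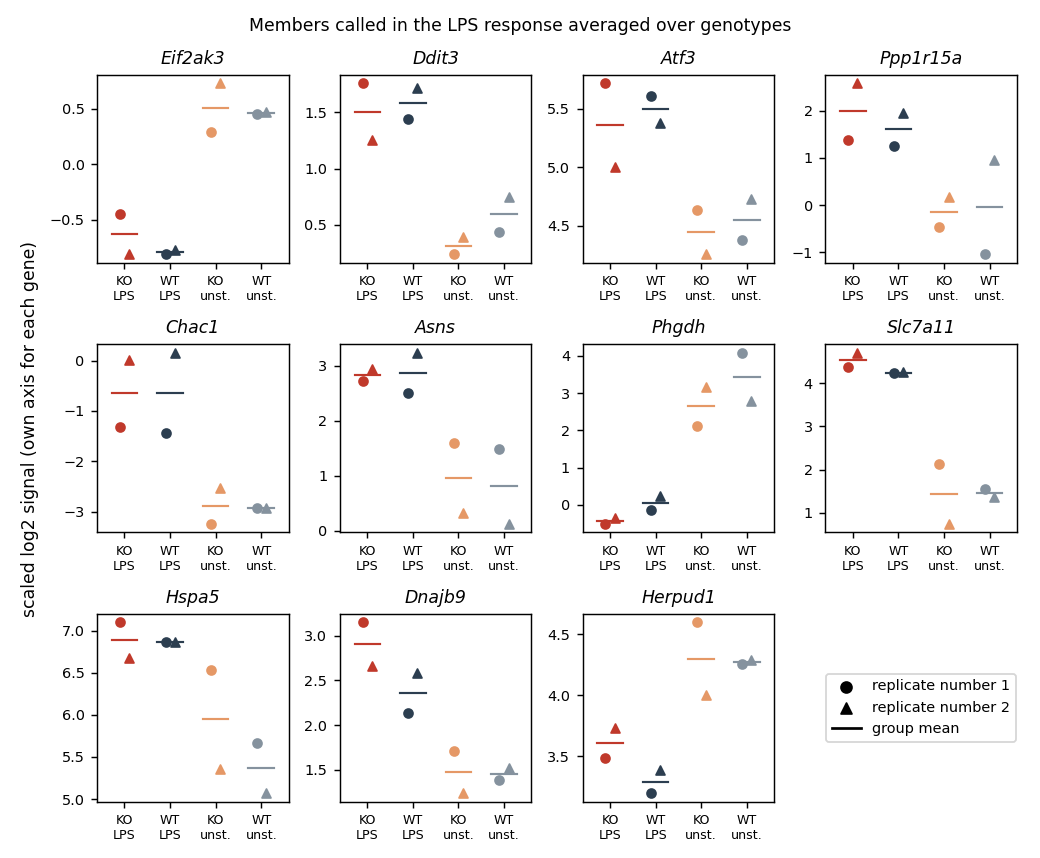
Scaled log2 signal (vertical axis, scaled separately for each gene) of the 11 members called in the averaged LPS response on KO LPS, WT LPS, KO unstimulated and WT unstimulated arrays; circles are replicate 1, triangles replicate 2 and lines group means. In every panel the 4 LPS arrays lie wholly above or wholly below the 4 unstimulated arrays.

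Among the 11 chaperones and folding enzymes, Hspa5 and Dnajb9 rose, a share of 18.2%, against 18.4% of all genes called higher. Hspa5 encodes BiP, the main ER chaperone and a brake on the sensors, and it read 7.10 and 6.68 on KO LPS arrays and 6.87 and 6.86 on WT LPS arrays, against 6.53 and 5.36 on KO unstimulated arrays and 5.67 and 5.07 on WT unstimulated arrays (chr2:34631630-34631689). The lowest LPS array was just above the highest unstimulated array, KO replicate 1, and the averaged difference was 1.22 ± 0.31 (SE, limma adjusted p = 0.0205). With slide as a block it was 0.93 with an adjusted p of 0.101, and the call was also lost with quantile scaling. Dnajb9, an ER co-chaperone of BiP and an IRE1-XBP1 target, read 3.15 and 2.66 on KO LPS arrays and 2.13 and 2.58 on WT LPS arrays, against 1.71 and 1.24 on KO unstimulated arrays and 1.39 and 1.52 on WT unstimulated arrays (chr12:45307313-45307372). Its arrays did not overlap, and it differed by 1.17 ± 0.22 (SE, limma adjusted p = 0.00720).

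The 9 folding genes that were not called ranged from -0.77 for Sdf2l1 to 1.30 for Creld2 in the averaged LPS response. Creld2, a secreted ER stress-induced protein, read 6.66 and 5.63 on KO LPS arrays and 6.06 and 6.35 on WT LPS arrays, against 5.67 and 4.10 on KO unstimulated arrays and 5.58 and 4.14 on WT unstimulated arrays. Its unstimulated arrays spanned more than 1 unit and overlapped the lowest LPS array (1.30 ± 0.48, SE, limma adjusted p = 0.0739). Sdf2l1, an ER co-factor of chaperones, averaged 3.38 in KO LPS and 3.20 in WT LPS, against 4.18 in KO unstimulated and 3.94 in WT unstimulated DC (-0.77 ± 0.38, SE, limma adjusted p = 0.155). Hsp90b1 (GRP94), Hyou1, the disulfide isomerase Pdia6 and Dnajc3, which inhibits PERK, differed by 0.74, 0.67, 0.61 and 0.52. The lectin chaperones Calr and Canx differed by 0.43 and 0.16, and the disulfide isomerase Pdia4 by 0.02, with limma adjusted p-values of 0.109 to 0.979 over these 7 genes. The chaperone median of 0.61 became 0.40 with quantile scaling, 0.20 with normexp background and 0.26 with slide as a block. It was 0.99 without KO unstimulated 1 and 0.94 without WT unstimulated 1, against 0.27 without KO unstimulated 2 and 0.39 without WT unstimulated 2.

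The chaperones varied widely among the unstimulated arrays. Both unstimulated replicates numbered 1 (KO and WT) were above both numbered 2 for 10 of 11 chaperones and folding enzymes, all but Dnajb9, and for 18 of 31 members (58.1%), against 24.6% of all genes. Hyou1, for example, read 3.76 and 2.17 on KO unstimulated arrays and 3.36 and 2.27 on WT unstimulated arrays. Pdia6 read 6.33 and 4.84 on KO unstimulated arrays and 6.20 and 4.85 on WT unstimulated arrays. The median difference between the arrays of a group over the 11 genes was 0.95 in KO unstimulated and 1.09 in WT unstimulated DC, against -0.01 and -0.11 for all genes. After LPS it was 0.49 in KO, where replicate 1 was the higher for 11 of 11, and -0.01 in WT DC, where it was the higher for 5 of 11. Both LPS replicates numbered 1 were above both numbered 2 for 5 of 11 (45.5%), against 28.2% of all genes. The WT unstimulated difference lies within slide 1, and the KO unstimulated arrays were on different slides. Within slide 2, where KO LPS is compared with KO unstimulated replicate 1 alone, the chaperone median was -0.10, and within slide 1, with both WT unstimulated arrays and WT LPS replicate 2, it was 0.58.

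**Figure D3:**
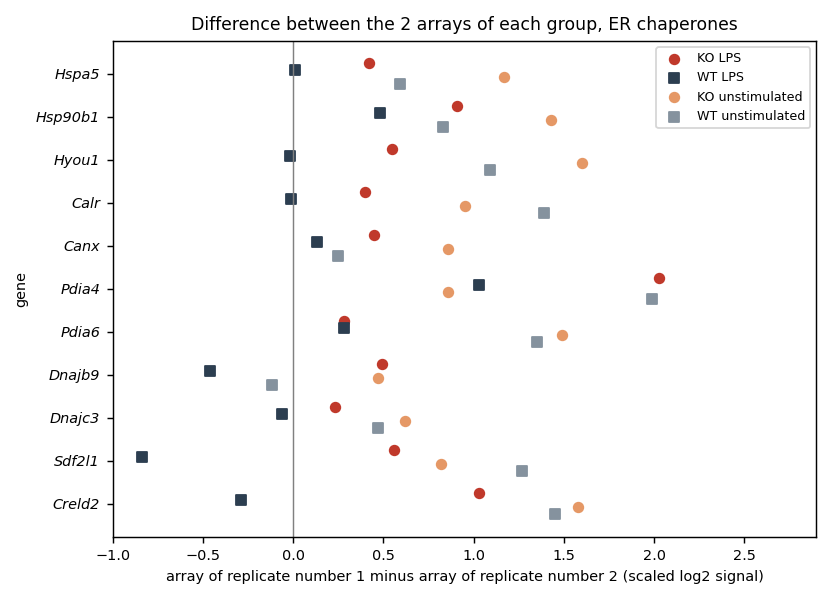
Difference between the 2 arrays of each group (replicate 1 minus replicate 2, scaled log2 signal, horizontal axis) for the 11 chaperones and folding enzymes (vertical axis), with a symbol for each of the KO LPS, WT LPS, KO unstimulated and WT unstimulated groups. The unstimulated points lie to the right of 0 for all genes except the WT point of Dnajb9, as do all 11 KO LPS points, while WT LPS points lie on both sides.

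Among the feedback genes the arrays were ordered the other way after LPS. Chac1, Ppp1r15a, Trib3 and Sesn2 were all higher on replicate 2 than on replicate 1 in KO LPS and WT LPS DC, with median differences (replicate 1 minus replicate 2) of -1.26 in KO and -0.97 in WT, against 0.01 and -0.06 for all genes. Replicate 1 was the higher for 51.0% of all genes in KO LPS and 45.0% in WT LPS DC.

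Of the genes of ER-associated degradation, 1 of 4 was called lower (25.0%), against 19% of all genes. Herpud1, an ER membrane component of the degradation complex, read 3.49 and 3.73 on KO LPS arrays and 3.20 and 3.39 on WT LPS arrays, against 4.6 and 4 on KO unstimulated arrays and 4.26 and 4.29 on WT unstimulated arrays (chr8:96919117-96919176). Every LPS array was lower, and the averaged difference was -0.84 ± 0.21 (SE, limma adjusted p = 0.0187). Edem1, a lectin that extracts misfolded glycoproteins, Sel1l, a scaffold of the ubiquitin ligase, and Derl1, a channel component, differed by 0.38, 0.18 and -0.21 (limma adjusted p-values 0.244 to 0.642). The 3 other Derl1 probes gave 0.15 to 0.38, opposite in sign to the brightest probe.

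Leaving out an array leaves its group with 1 array, which is then assumed to vary like the other groups. Left out one at a time, none of the 8 arrays ended the averaged calls of Slc7a11, Phgdh, Chac1, Ddit3, Dnajb9, Asns or Eif2ak3, whose largest limma adjusted p was then 0.0350, for Asns. Each of the other 4 calls was lost without some arrays: Hspa5 without KO LPS 1, WT LPS 1, WT LPS 2 or WT unstimulated 2 (adjusted p up to 0.0659), and Ppp1r15a without KO LPS 2, WT LPS 2 or either KO unstimulated array (up to 0.0758). Atf3 was lost without KO LPS 1, WT LPS 1, KO unstimulated 2 or WT unstimulated 1 (up to 0.0728), and Herpud1 without KO LPS 1 or WT LPS 1 (up to 0.0705).

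Slc7a11 and Chac1 rose in each genotype taken alone, and Phgdh and Eif2ak3 fell. In KO, 4 members (12.9%) were called higher, against 10.4% of all genes, and 2 (6.45%) lower, against 10.5%. The 4 were Slc7a11 (3.10 ± 0.45, SE, limma adjusted p = 0.00457), Chac1 (2.23 ± 0.63, 0.0485), Dnajb9 (1.43 ± 0.32, 0.0215) and Ddit3 (1.19 ± 0.29, 0.0292), and the lower ones were Phgdh (-3.08 ± 0.52, 0.00810) and Eif2ak3 (-1.14 ± 0.27, 0.0285). In WT, 3 members (9.68%) were called higher, against 9.48% of all genes, and 2 (6.45%) lower, against 10.7%. They were Slc7a11 (2.79 ± 0.45, SE, limma adjusted p = 0.00733), Chac1 (2.29 ± 0.63, 0.0456) and Asns (2.06 ± 0.59, 0.0499), with Phgdh (-3.39 ± 0.52, 0.00618) and Eif2ak3 (-1.25 ± 0.27, 0.0213) lower. Asns in KO differed by 1.88 ± 0.59 (0.0651), and Ddit3 and Dnajb9 in WT by 0.98 ± 0.29 (0.0553) and 0.90 ± 0.32 (0.0934), and no difference between the genotypes' responses was called for these genes. The higher shares were close to the background in both genotypes.

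Of these 11 calls, those of Slc7a11 in both genotypes and of Phgdh in WT were still made without any 1 of the 8 arrays, with the lone array of a group again taken to vary like the rest, and Phgdh in KO was lost without KO unstimulated 2 (limma adjusted p = 0.0528). In KO, Dnajb9 was lost without KO LPS 1 or KO unstimulated 2 (adjusted p up to 0.126), and Ddit3 without any 1 of the 4 KO arrays (up to 0.173). Chac1 in KO was lost without KO LPS 2 or any 1 of the 4 unstimulated arrays (up to 0.216), and Eif2ak3 in KO without KO unstimulated 2 or any 1 of the 4 LPS arrays (up to 0.166). In WT, Eif2ak3 was lost without any 1 of the 4 WT arrays (up to 0.102). Chac1 in WT was lost without WT LPS 2 or any 1 of the 4 unstimulated arrays (up to 0.186), and Asns without WT unstimulated 2 or any 1 of the 4 LPS arrays (up to 0.200).

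Slides were partly tied to the groups, so the responses were also taken within a slide. Within slide 2, KO LPS against KO unstimulated replicate 1 differed by 2.41 for Slc7a11, 2.58 for Chac1, 1.2 for Dnajb9, 1.27 for Ddit3, -2.55 for Phgdh and -0.92 for Eif2ak3, with no member called by limma at adjusted p and 10 at an unadjusted p under 0.05. Within slide 1, WT LPS replicate 2 against WT unstimulated differed by 2.80 for Slc7a11, 3.09 for Chac1, 2.43 for Asns, -3.19 for Phgdh and -1.22 for Eif2ak3, and the first 2 and Phgdh were called. Each of these comparisons has 1 array in an arm (KO unstimulated on slide 2, WT LPS on slide 1), so its spread comes from the other group's pair of arrays, and the lone array is assumed to vary like them. Hspa5 differed by 0.36 within slide 2 (KO) and by 1.49 within slide 1 (WT).

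**Figure D4:**
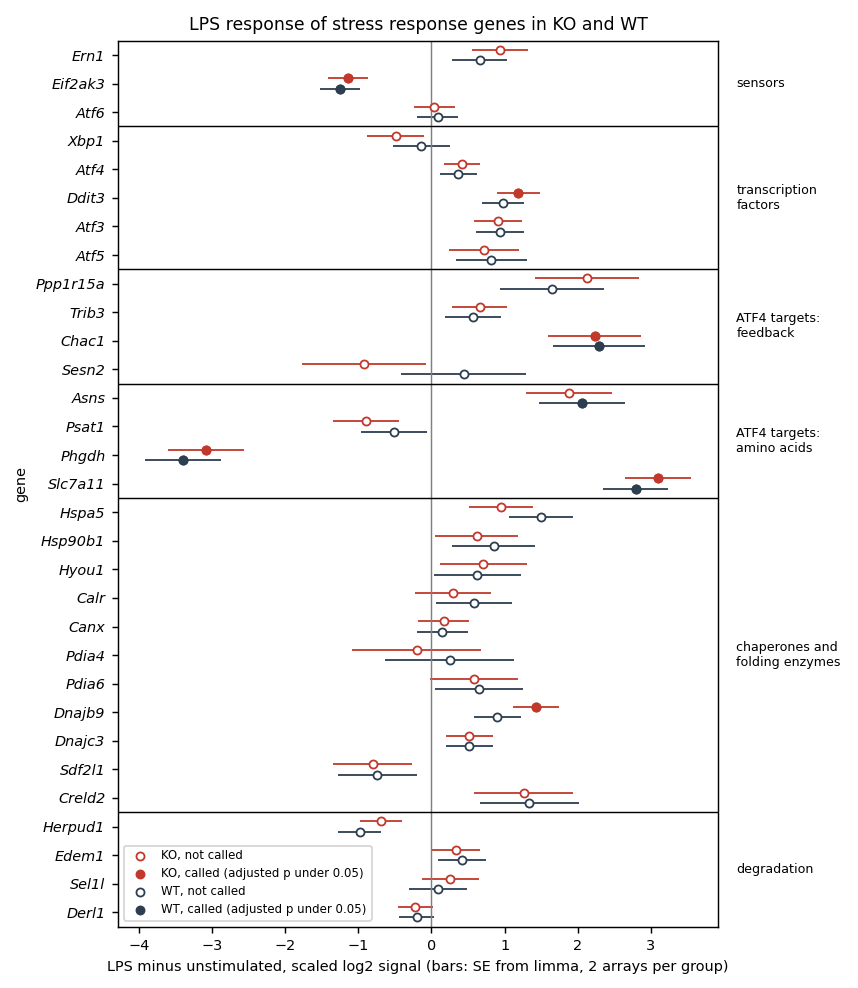
LPS minus unstimulated difference in scaled log2 signal (horizontal axis, bars are SE from limma, 2 arrays per group) for each of the 31 members (vertical axis, grouped by role), KO in red above WT in dark blue; filled points were called at an adjusted p under 0.05. Slc7a11 and Chac1 lie at 2.23 to 3.10 and Phgdh at -3.08 and -3.39 in both genotypes.

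Loss of miR-155 was not accompanied by a detected change in any member. Of 31 members, 0 were called by limma in KO against WT unstimulated DC (0.24% of all genes called), after LPS (0.026%), averaged over both states (0.143%) or in the difference of LPS responses (0.0455%), and 0 had an unadjusted p under 0.05 in any of these. No member had all 4 KO arrays above all 4 WT arrays, against 0.339% of all genes, or below them, against 0.332%. Averaged over both states, differences ran from -0.63 for Phgdh (95% interval -1.51 to 0.24) to 0.47 for Sesn2 (-0.96 to 1.89).

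These intervals show what 2 arrays per group can resolve. For Atf4 the averaged KO minus WT difference was -0.03 (95% interval -0.45 to 0.38), for Eif2ak3 0.10 (-0.36 to 0.57), for Ddit3 -0.18 (-0.66 to 0.31) and for Derl1 -0.21 (-0.62 to 0.20). Intervals of some members, Chac1 and Creld2 included, exceed 1 unit on both sides. Examples are Pdia4 (0.13, -1.35 to 1.60) and Ppp1r15a (0.14, -1.05 to 1.34). A 2-fold change in such members was not detectable. In unstimulated DC, Sesn2 had the largest difference, 1.15 (95% interval -0.86 to 3.17), where 1 of the WT arrays read 0.81 and the other 3 unstimulated arrays 3.06 to 3.20. The other Sesn2 probe read 1.79 on that array and gave differences of 0.10 in unstimulated DC and -0.10 averaged, so both extremes of Sesn2 rest on 1 probe. After LPS it was Dnajb9, at 0.55 (-0.20 to 1.31). The LPS responses differed between KO and WT by -0.55 for Hspa5 (95% interval -2.01 to 0.92), 0.31 for Slc7a11 (-1.20 to 1.82) and -0.06 for Chac1 (-2.18 to 2.06). The extremes were -1.37 for Sesn2 (-4.22 to 1.48), where the other probe gave -0.41, and 0.53 for Dnajb9 (-0.54 to 1.60).

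**Figure D5:**
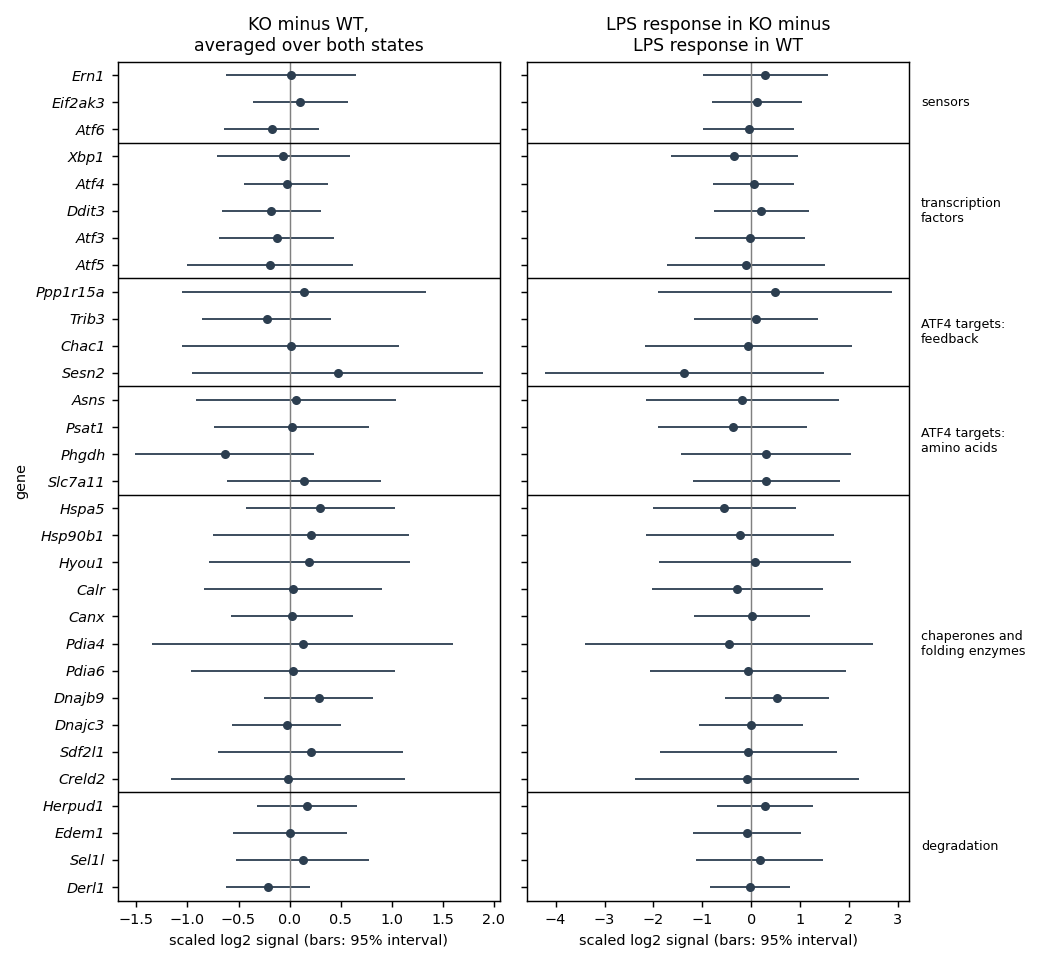
KO minus WT difference averaged over both states (left) and the LPS response in KO minus that in WT (right), in scaled log2 signal (horizontal axes; points are limma estimates, bars 95% intervals), for each of the 31 members (vertical axis, grouped by role). Every bar crosses 0.

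Set beside the promoter letters shown above, the 7 members with ERSE were all positive in the averaged LPS response on the probe used, as were 23 of all 31 members. They ran from 0.16 to 1.30 with a median of 0.61, and 1, Hspa5, was called higher, against 18.4% of all genes. Another probe of Canx and another of Dnajc3 each gave -0.02, while the remaining probes of these genes were positive. With slide as a block, Canx became -0.09. Within slide 2 (KO), Canx, Calr, Pdia6 and Hsp90b1 were negative (-0.26, -0.19, -0.17 and -0.1). Creld2, Hspa5 and Dnajc3 were positive there (0.47, 0.36 and 0.21). Within slide 1 (WT) all 7 were positive, from 0.08 for Canx to 1.49 for Hspa5 and Creld2. All 15 tested genes with ERSE, those 7 included, also had a median of 0.61, and 9248 tested genes without it had a median of -0.01. Of the 5 members with CARE, 4 were called higher (Slc7a11, Chac1, Asns and Atf3) and 1 lower (Herpud1), with a median of 1.97. Of all genes tested, 18.4% were called higher and 19% lower. The members include known ATF4 targets and were chosen with earlier results known, so these counts are given as a description. Over all 234 tested genes with CARE the median was 0.03.

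Other genes of both pathways come from lists chosen with earlier results known. Of 39 tested genes of the unfolded protein response and ER quality control, 6 rose in the averaged LPS response and 3 fell (15.4% and 7.69%, against 18.4% and 19% of all genes; median 0.20). Of 28 tested genes of the integrated stress response, 8 rose and 6 fell (28.6% and 21.4%, against the same shares of all genes; median 0.08). In KO 3 genes of the first list (7.69%) and 7 of the second (25.0%) rose, against 10.4% of all genes, and 1 (2.56%) and 2 (7.14%) fell, against 10.5%. In WT 1 (2.56%) and 4 (14.3%) rose, against 9.48% of all genes, and 2 (5.13%) and 3 (10.7%) fell, against 10.7%. All these counts of the second list that rose include Slc7a3, and those of the first list that fell include Fkbp14. Slc7a3 passed the filter only through the LPS groups and Fkbp14 only through KO unstimulated DC, so these 2 calls were favoured by the filter. Dnajc1, an ER membrane co-chaperone, read 5.43 and 5.66 on KO LPS arrays and 5.30 and 5.59 on WT LPS arrays, against 2.69 and 2.02 on KO unstimulated arrays and 2.60 and 2.09 on WT unstimulated arrays. It was higher on every LPS array, by 3.14 ± 0.24 on average (SE, limma adjusted p = 0.000174). Eif2ak2, the interferon-induced eIF2alpha kinase PKR, rose by 3.04 ± 0.25 (limma adjusted p = 0.000228).

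Slc3a2, the heavy chain that pairs with the Slc7a11 product, rose by 1.5 ± 0.20 (limma adjusted p = 0.00179), and Mthfd2, a mitochondrial folate enzyme, by 1.73 ± 0.25 (0.00238). Slc7a3, a cationic amino acid transporter, was not well above background on any unstimulated array and was at least 8.17-fold higher with LPS in KO and at least 4.10-fold in WT. It passed the filter only through the LPS groups, so its difference is given as a description. Slc1a5, a neutral amino acid transporter, fell by 2.39 ± 0.35 (limma adjusted p = 0.00228), as did Gdf15, a stress-induced cytokine, by 2.39 ± 0.52 (0.0118). Nupr1, a stress-induced chromatin regulator, and Ero1l, an ER oxidase, rose by 1.83 ± 0.35 (0.00712) and 1.80 ± 0.58 (0.0482). Bbc3, which encodes the pro-apoptotic protein PUMA, fell by 1.53 ± 0.45 (limma adjusted p = 0.0355). No gene of either list was called by limma between KO and WT, and none had an unadjusted p under 0.05.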

How the data were processed

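Gene expression was measured in 8 samples on one-colour Agilent arrays. Agilent Feature Extraction 10.5.1.1 made the deposited intensity values, per the file headers: a linear signal with background and spatial trend subtracted and no scaling between arrays. Other deposited columns are flags (0 or 1) for saturation (0 spots), outliers and signal well above background. Log2 values deposited for the whole series equalled the log2 processed signal plus a constant for each array, with a 75th percentile of 9.19 in every column, and were an alternative.

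Control spots (1639 of 45018) and outlying spots (120 to 174 per array) were left out, and the log2 signal minus each array's 75th percentile was used. A probe was kept if some group had both its arrays well above background (23739 probes), and the brightest probe stood for a gene (15401 genes, of which 48 lack a value somewhere). Of the members, 16 had several probes, and 30 accessions matched RefSeq. Group means were estimated by limma 3.58.1 under R 4.3.3 (data.table version 1.17.8; residual and prior degrees of freedom 4 and 2.88), with two-sided p-values adjusted by the Benjamini-Hochberg method over all genes in each of 7 comparisons, checked on simulated data. A group mean rests on 2 arrays, which limits the precision. Figures were drawn with matplotlib 3.10.9 in Python 3.11.15. Members and lists were chosen with earlier results of these data known. Named are all members called, the largest difference of a role group without a call, and the 10 pathway genes with the largest averaged LPS difference. Where a pathway gene was at background in a whole group, a lower bound is given, from the lowest signal well above background on each array. Alternatives were normexp background, quantile scaling, the series table, other filters, mean of probes, trended moderation, slide and replicate blocks, single slides and leaving out each array.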

Additional observations from a re-analysis of the deposited data

How the results depend on the processing

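The counts of members called were 5 for the LPS response in WT, 6 in KO and 11 averaged, and 0 in each comparison of genotypes. With normexp background they were 2, 1 and 4, and with a maximum likelihood fit of normexp, added after seeing the data, also 2, 1 and 4. The averaged calls kept under both were Slc7a11, Chac1, Ppp1r15a and Phgdh. The fitted background mean was then -1551 (-1690 by maximum likelihood) for KO LPS replicate 2, against -32.16 to 1.041 for the others, and the members' median in KO turned to -0.25. Without a filter on dim probes 3 and 3 were called in WT and KO, and with trended and robust moderation 8 in WT. With slide as a block 3 were called in WT, within slide 1 3, and within slide 2 0 in KO (10 at an unadjusted p under 0.05). Leaving out 1 array gave 2 to 6 in WT, 1 to 7 in KO and 8 to 12 averaged. The fewest in WT were without WT LPS replicate 2 (2) and without WT LPS replicate 1 or either WT unstimulated array (3 each), and in KO without KO unstimulated replicate 2 (1) or either KO LPS array (3 each). Each genotype comparison had 0 under every alternative run. With the replicate number as a block 8 were called in WT, 7 in KO and 16 averaged, where Creld2, Hsp90b1, Ern1 and Trib3 were then called higher and Psat1 lower; the deviations of same-numbered arrays correlated by 0.01 to 0.69, and the labels do not say that the numbers pair samples. Over all genes, 3106, 3208 and 5759 calls (WT, KO, averaged) became 680, 936 and 2027 with normexp and 441 within slide 2 (KO). No called member changed sign. The cause of these shifts was not tested. Precision is limited by 2 arrays per group and by the partial overlap of slide and group.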
